A study of Saccharomyces cerevisiae with 4 samples.

Results

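The 10 genes described here build and break down trehalose and glycogen, the reserve carbohydrates of the yeast Saccharomyces cerevisiae. They were chosen by pathway, by their systematic names, and all 10 were found among the 7126 rows of the deposited table and were abundant enough to test, as were 6277 rows in all. RNA with poly(A) tails was sequenced in 4 libraries from strain BY4741, a haploid of mating type a used in the laboratory. Every library came from cells carrying a CRISPR interference system, in which a guide RNA directs an inactive Cas9 protein to block transcription at a chosen site. In 2 libraries, scrambled A and B, the guide was scrambled, and in 2, +116 A and B, it was the guide named +116, which inhibits the GAL10 noncoding RNA. All cultures grew on glucose, in synthetic complete medium lacking leucine and uracil, from an optical density of 0.1 to 0.4. The series' text counts 2 strains per guide, and how these strains or their cultures were started is not described, so p-values measure the spread between these libraries, which may be technical.

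Trehalose is made from UDP-glucose and glucose-6-phosphate by a complex of a synthase, a phosphatase and large regulatory subunits, and it protects proteins and membranes under stress besides storing carbon. Glycogen is built from UDP-glucose by glycogen synthase and a branching enzyme, and is mobilised by glycogen phosphorylase and a debranching enzyme. Cells growing fast on glucose hold little of either, and both accumulate as glucose runs low or stress sets in. Many genes of both pathways are known targets of the activators Msn2 and Msn4, which bind the stress response element, the pentamer AGGGG. Protein kinase A keeps these activators out of the nucleus when glucose is plentiful.

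The upstream sequences of the members share that element, which the choice of genes did not use. The 600 bases before each start codon, from the RefSeq annotation of assembly R64, were searched for AGGGG on either strand, which on the gene's own strand reads AGGGG or CCCCT. All 10 members held at least 1 copy, against 39.6% of 6018 protein-coding genes. At least 3 copies stood before 6 of the 10 members, against 2.43% of those genes. TPS1 had the most copies, 6, and GDB1 the fewest, 1. Of the 32 copies in all, 3 lay inside another annotated gene, 1 before TPS1 in YBR126W-A and 2 before TSL1 in YML100W-A. A match describes the letters only and does not show that an activator binds there. No annotated gene overlapped a member.

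The stretches that hold every copy of the element in 6 members follow, with 20 bases on each side, 5′ to 3′ on the strand of the gene and with each copy in capitals. TPS1 and GDB1 are shown as the richest and the poorest, and TSL1 with TPS3 and GSY1 with GSY2 as pairs of related genes. In R64 the stretches lie at chrII:490607-490884 (minus strand) for TPS1, chrXIII:70226-70483 (plus strand) for TSL1, chrXIII:793562-793624 (minus strand) for TPS3, chrVI:176699-176878 (minus strand) for GSY1, chrXII:660319-660544 (plus strand) for GSY2 and chrXVI:901832-901876 (plus strand) for GDB1.
TPS1: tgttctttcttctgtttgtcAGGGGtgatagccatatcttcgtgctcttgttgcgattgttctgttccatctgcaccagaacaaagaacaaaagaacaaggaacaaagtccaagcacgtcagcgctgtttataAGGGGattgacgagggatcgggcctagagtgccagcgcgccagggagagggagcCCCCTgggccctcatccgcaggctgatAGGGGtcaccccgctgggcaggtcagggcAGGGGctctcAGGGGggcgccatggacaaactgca
TSL1: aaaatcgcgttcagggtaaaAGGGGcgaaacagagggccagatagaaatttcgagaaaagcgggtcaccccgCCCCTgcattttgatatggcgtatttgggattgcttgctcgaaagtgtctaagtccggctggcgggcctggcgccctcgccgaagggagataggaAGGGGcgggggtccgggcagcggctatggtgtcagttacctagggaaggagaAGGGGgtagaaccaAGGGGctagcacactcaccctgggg
TPS3: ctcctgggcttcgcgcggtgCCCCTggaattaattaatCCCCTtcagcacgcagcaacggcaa
GSY1: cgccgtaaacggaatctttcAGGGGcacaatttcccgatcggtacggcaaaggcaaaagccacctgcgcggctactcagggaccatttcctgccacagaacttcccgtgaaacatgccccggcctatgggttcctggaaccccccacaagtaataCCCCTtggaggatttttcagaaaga
GSY2: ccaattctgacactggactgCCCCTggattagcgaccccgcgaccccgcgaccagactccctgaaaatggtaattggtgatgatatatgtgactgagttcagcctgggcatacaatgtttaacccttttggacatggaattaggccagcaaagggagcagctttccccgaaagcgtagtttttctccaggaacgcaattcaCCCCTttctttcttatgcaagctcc
GDB1: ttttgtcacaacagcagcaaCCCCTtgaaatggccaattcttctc

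**Figure D1:**
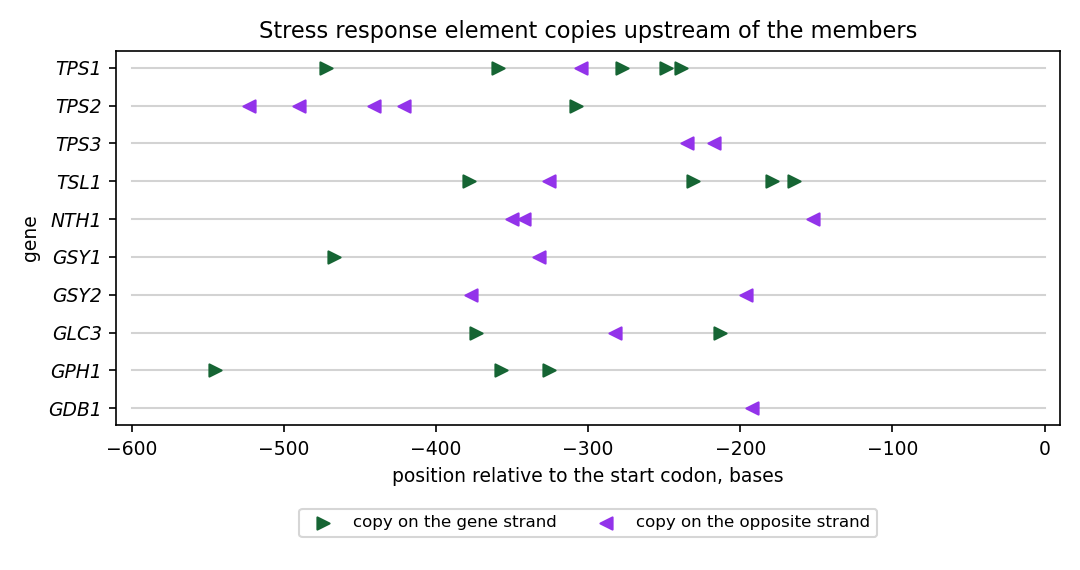
Copies of the stress response element in the 600 bases before the start codon of the 10 members; the horizontal axis gives the distance from the start codon in bases, and the arrowheads give the strand. Copies number 6 before TPS1, 5 before TPS2 and TSL1, 3 before NTH1, GLC3 and GPH1, 2 before TPS3, GSY1 and GSY2, and 1 before GDB1.

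Between 34215480 and 40628383 reads per library were assigned to genes, and the members together took 0.0827% to 0.0992% of them. Among the GAL genes, GAL1 was at 411 and 469 normalized reads with the scrambled guide and at 133 and 116 with +116, and GAL10 went from 95.0 and 113 to 192 and 171. Both passed the limma test, at adjusted p-values of 3.7e-06 and 0.0403, which no gene of the table did in fits without scrambled A or without scrambled B. A fit that leaves out 1 library takes the spread from the other group alone and assumes that the lone library varies alike. The log2 folds of GAL1 (−1.81) and GAL10 (0.80) became −1.91 and 0.68 when scrambled A was dropped (limma adjusted p = 0.0511 and 0.148) and −1.72 and 0.92 when scrambled B was (0.103 and 0.342). MET17, deleted in BY4741, was at 0 in every library. The a-specific gene STE2 ranged from 25639 to 26546 normalized reads. The a-specific genes MFA1 and MFA2 had log2 folds of −0.22 and −0.11 (limma adjusted p = 0.0705 and 0.244). Both were lower in each +116 library than in either scrambled library, as were 26.3% of tested genes. The α-specific gene MFALPHA1 was at 49.7 and 49.3 with the scrambled guide and at 30.0 and 29.2 with +116 (limma adjusted p = 0.110). STE3, also α-specific, was higher, at 359 and 371 with the scrambled guide and at 302 and 378 with +116. The α-specific gene MFALPHA2 was below MFALPHA1 in every library.

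With the +116 guide, every member had more normalized reads in both libraries than in either scrambled library. The mean differences were small, from 10.05% for GPH1 to 23.3% for TSL1. Across all tested genes, 27.3% were likewise higher with +116 without overlap and 26.3% were lower. The log2 folds of the members, on the log2(value + 1) scale, ran from 0.14 to 0.30 with a median of 0.20, while the median over all tested genes was 0.0013. The limma test, adjusted by the Benjamini-Hochberg method over the 6277 genes, called 1 member, TSL1, at a threshold of 0.05, and it called 0.51% of all tested genes higher and 0.335% lower. These were 32 and 21 genes, against 73 and 76 with upper-quartile scaling. At an unadjusted p of 0.05, 9 of 10 members were higher and 0 lower, against 11.5% and 10.3% of tested genes. These 10 genes were chosen with earlier results of the same data known. In a culture, a change in every cell and a larger change in some of the cells cannot be told apart.

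**Figure D2:**
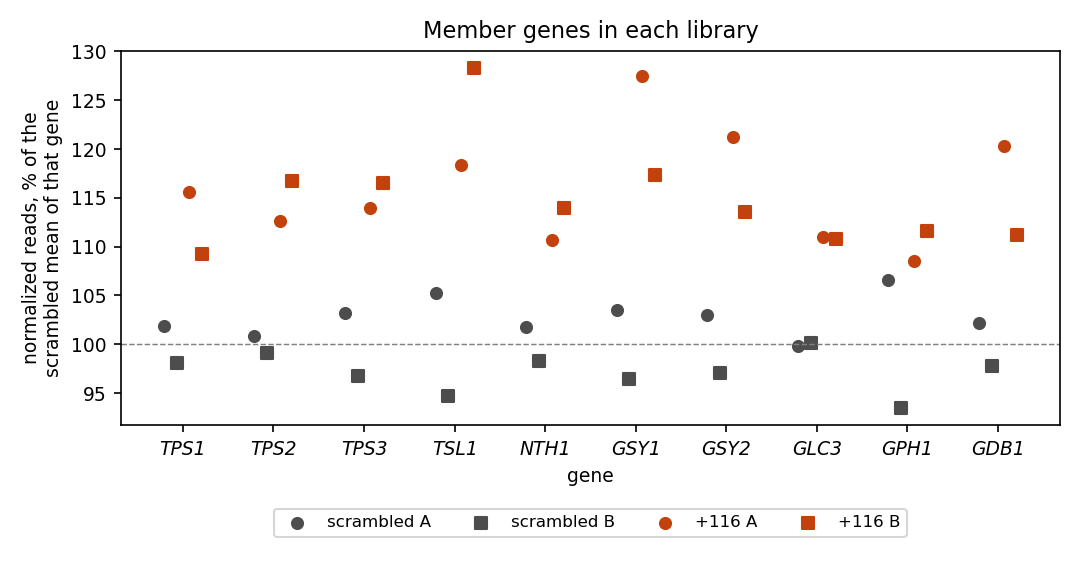
Normalized reads of each member in each library, as a percentage of the mean of the 2 scrambled libraries for that gene (dashed line at 100%; the axis does not start at 0). All +116 points lie above the scrambled points of the same gene, most narrowly for GPH1.

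Trehalose synthesis is carried out by a complex of 4 proteins, and the genes of all of them were higher in both +116 libraries. TPS1 (YBR126C), which encodes the synthase, had 7955 and 7657 normalized reads in scrambled A and B and 9024 and 8528 in +116 A and B. Its groups did not overlap, and the lower +116 library was 1.07 times the higher scrambled library. The log2 fold was 0.17 ± 0.0509 (standard error, SE), which did not pass (limma adjusted p = 0.101). TPS2 (YDR074W), which encodes the phosphatase that turns trehalose-6-phosphate into trehalose, had 4060.0 and 3989 normalized reads with the scrambled guide and 4534 and 4697 with +116. Its scrambled libraries lay close together, and its log2 fold was 0.20 ± 0.0503 (SE; limma adjusted p = 0.0684). Leaving out +116 B put TPS1 at a log2 fold of 0.21 and TPS2 at 0.17. Leaving out +116 A put TPS1 at 0.13 and TPS2 at 0.22. They were at 0.20 and 0.21 when scrambled A was dropped, and at 0.14 and 0.18 when scrambled B was.

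TSL1 (YML100W) and TPS3 (YMR261C) are related genes for the large regulatory subunits of the complex, and the longest run of bases their coding sequences share is 15. TSL1 had 4207 and 3787 normalized reads in the scrambled libraries and 4731 and 5129 in the +116 libraries. Its mean rose with +116 from 3997 ± 297 to 4929.9 ± 282 (SD, n = 2). The log2 fold was 0.30 ± 0.0613 (SE; limma adjusted p = 0.0461). Dropping scrambled A gave 0.38 and dropping scrambled B gave 0.23 (limma adjusted p = 0.134 and 0.661), in fits where limma called 0 of the 6277 genes. TPS3 had 3881 and 3637 normalized reads with the scrambled guide and 4283 and 4379.9 with +116. Its log2 fold was 0.21 ± 0.0530 (SE; limma adjusted p = 0.0705). It was 0.22 without +116 A, 0.19 without +116 B, 0.25 without scrambled A and 0.16 without scrambled B. Per kilobase of coding length, TSL1 stood at 1.04 and 0.9996 times TPS3 in scrambled A and B and at 1.06 and 1.12 times in +116 A and B. The ratio was higher in both +116 libraries, with an exact two-sided permutation p of 0.3333, the smallest that 2 libraries against 2 allow.

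NTH1 (YDR001C) encodes the neutral trehalase, which splits trehalose into glucose. It had 4643 and 4485 normalized reads in scrambled A and B and 5052 and 5203 in +116 A and B. This breakdown gene was higher in the same libraries as the synthesis genes, at a log2 fold of 0.17 ± 0.0502 (SE; limma adjusted p = 0.0976). The ratio of TPS1 to NTH1 per coding length was 2.60 and 2.59 with the scrambled guide and 2.71 and 2.48 with +116, and these ranges overlapped (exact two-sided permutation p = 1).

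Glycogen synthase is encoded by the related genes GSY1 and GSY2, and their product is the enzyme that lengthens the glycogen chain. The longest run of bases shared by their coding sequences is 20. GSY1 (YFR015C) had 1105 and 1029.9 normalized reads in the scrambled libraries and 1361 and 1253 in the +116 libraries, and its groups did not overlap. Its log2 fold of 0.29 ± 0.0692 (SE), was close to that of TSL1 but missed the threshold (limma adjusted p = 0.0559). GSY2 (YLR258W), the more abundant of the pair, had 3919.8 and 3695 normalized reads with the scrambled guide and 4616 and 4324 with +116. Its log2 fold was 0.23 ± 0.0551 (SE; limma adjusted p = 0.0559). In both groups the B library was below the A library for each gene of the pair. GSY2 stood at 3.56 and 3.60 times GSY1 per coding length with the scrambled guide and at 3.41 and 3.46 times with +116, lower in both +116 libraries (exact two-sided permutation p = 0.3333). Without +116 B, GSY1 and GSY2 had log2 folds of 0.35 and 0.28, and without +116 A 0.23 and 0.18. They were at 0.34 and 0.27 without scrambled A, and at 0.24 and 0.19 without scrambled B.

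GLC3 (YEL011W), which encodes the branching enzyme, gave the tightest values of all members. It had 826 and 828 normalized reads in scrambled A and B and 918 and 916 in +116 A and B. The groups were thus well apart relative to the spread within them, but limma draws the error of a gene towards that of genes of like abundance, and the log2 fold of 0.15 ± 0.0678 (SE) did not pass (limma adjusted p = 0.221).

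The genes for glycogen breakdown were also higher in both +116 libraries, and neither passed. GPH1 (YPR160W), which encodes glycogen phosphorylase, had 1022 and 896 normalized reads with the scrambled guide and 1041 and 1070.1 with +116. This was the narrowest separation among the members, with +116 A at 1.02 times scrambled A. Its log2 fold of 0.14 ± 0.0750 (SE), was the lowest of the 10 (limma adjusted p = 0.291). It was 0.24 without scrambled A and 0.046 without scrambled B. GDB1 (YPR184W), which encodes the debranching enzyme, had 1032 and 987 normalized reads in the scrambled libraries and 1215 and 1122 in the +116 libraries, a log2 fold of 0.21 ± 0.0685 (SE; limma adjusted p = 0.116). The ratio of GSY2 to GPH1, of synthesis to breakdown, ran from 4.91 to 5.27 per coding length with the scrambled guide and from 5.17 to 5.67 with +116, and these ranges overlapped (exact two-sided permutation p = 0.667). Over the 4 ratios tested, the lowest p adjusted by the Benjamini-Hochberg method was 0.667.

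Gene length moved with the guide difference, and the members are long. Their median coding length was 2473.5 bp, against 1219.5 bp over tested genes with a length. In 10 length bins of near-equal size, made from the 5794 such genes, the median log2 fold went from −0.12 in the shortest bin to 0.11 in the longest. All members fell in the 4 longest bins, where the bin medians ran from 0.031 to 0.11. Each of the 10 members lay above the upper quartile of its own bin. TSL1 exceeded 98.6% and GSY1 98.1% of the genes in their bins, and GPH1, the lowest, exceeded 77.4%.

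**Figure D3:**
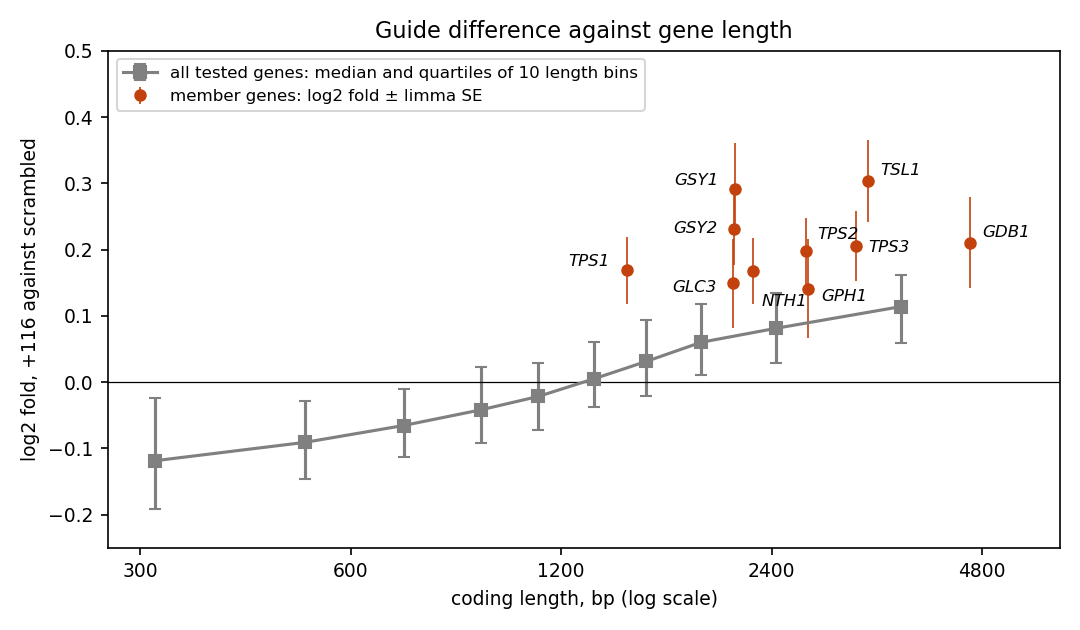
Log2 fold of +116 against scrambled by coding length on a log scale; grey squares and bars give the median and quartiles of 10 length bins of all tested genes, and orange points the members with limma SE. The members lie above the grey line, between 0.14 and 0.30.

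After a length trend was subtracted from each library, the members' log2 folds all remained above 0, against 45.2% of tested genes. They ran from 0.04 for GPH1 to 0.21 for GSY1 with a median of 0.10, while all tested genes had a median of −0.010. The order of the members also shifted, with GSY1 above TSL1 (0.20) and with TPS1 (0.14) next after GSY2 (0.15). None of the members passed after the correction, where limma called 0 genes higher and 3 lower in all, and the lowest adjusted p among the members was 0.239. At an unadjusted p of 0.05, 7 members were higher and 0 lower, against 6.14% and 7.85% of the 5794 genes. How far length accounts for the members' differences was not tested beyond this correction.

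**Figure D4:**
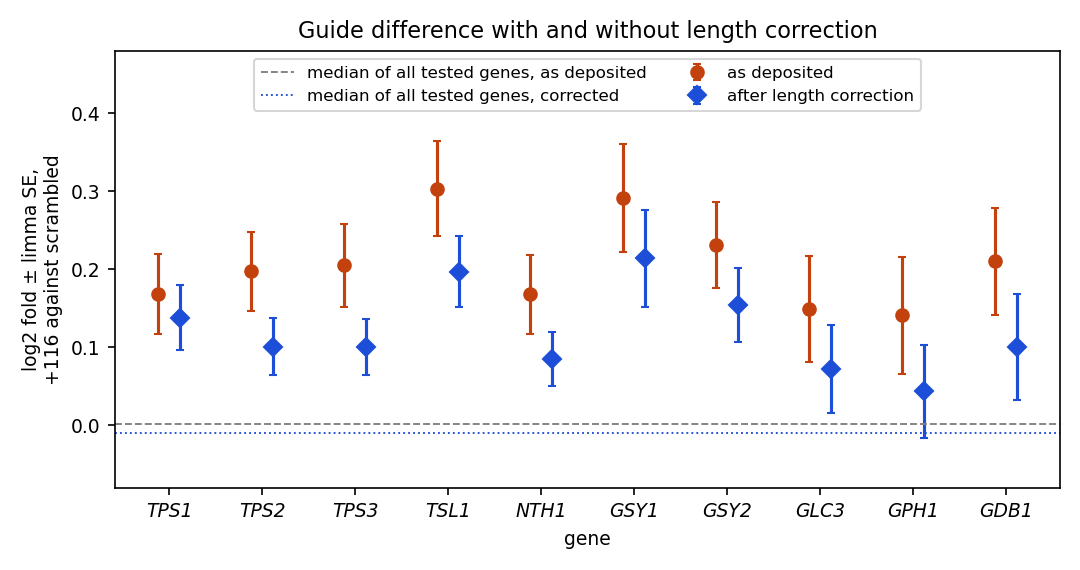
Log2 fold of each member with limma SE, as deposited (orange circles) and after the length correction (blue diamonds), with the median of all tested genes as horizontal lines. The median over the members was 0.20 before and 0.10 after the correction, and all diamonds lie above 0.

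The levels of the members themselves spanned a 24.0-fold range per coding length. TPS1 was the highest, at 5246 ± 142 normalized reads per kilobase with the scrambled guide (SD, n = 2). Its mean over all 4 libraries was above that of 83.6% of the 5794 tested genes with a length. NTH1 (2023 ± 49.7), GSY2 (1798 ± 75.2), TPS2 (1496 ± 18.6), TSL1 (1212 ± 90.2) and TPS3 (1188 ± 54.6) followed on this scale. The other glycogen genes were the lowest, with GSY1 at 502 ± 25.0, GLC3 at 391 ± 0.866, GPH1 at 354 ± 32.8 and GDB1 at 219 ± 6.86 normalized reads per kilobase. GDB1, by its mean over all 4 libraries, was above 8.96% of the 5794 genes. The order was the same with the +116 guide. Of the 9 pairs of neighbours in this order, TSL1 and TPS3 overlapped in the scrambled libraries, and none overlapped in the +116 libraries.

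**Figure D5:**
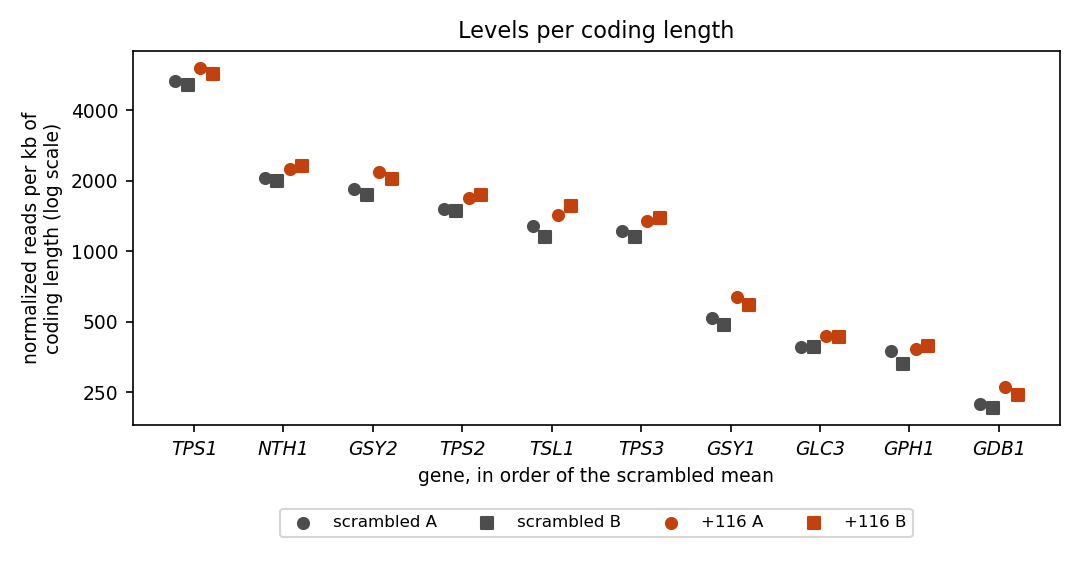
Level of each member in each library, as normalized reads per kilobase of coding length on a log scale, in order of the scrambled mean. TPS1 is the highest and GDB1 the lowest, and the libraries of each gene lie close together next to the range between genes.

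Of 34 other genes that supply or regulate these pathways, 1 passed the test, higher with +116. Over all tested genes, 0.51% were called higher and 0.335% lower. Of the 34 genes, 24 had a log2 fold above 0, against 50.5% of all tested genes. The median log2 fold over the 34 genes was 0.051. Among genes that supply glucose phosphates and UDP-glucose, HXK1, which encodes a hexokinase, had 3850.1 and 3479.9 normalized reads with the scrambled guide and 4429 and 4679 with +116. It rose by a log2 fold of 0.31 ± 0.0588 (SE; limma adjusted p = 0.0413). The log2 fold was 0.39 without scrambled A and 0.24 without scrambled B. After the length correction it was 0.29 ± 0.0517 (SE). This did not pass (limma adjusted p = 0.239), in a fit where limma called 0 genes higher with +116.

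The transcription factor genes MSN4 and MSN2 were at log2 folds of 0.23 and 0.15 (limma adjusted p = 0.0571 and 0.168). MSN4 had 2251 and 2135 normalized reads with the scrambled guide and 2583 and 2554 with +116. All 4 regulator genes on the list, with the kinase genes RIM15 and SNF1, were higher in both +116 libraries, against 27.3% of tested genes, and none passed. After the length correction their median log2 fold went from 0.14 to 0.069, with MSN4 at 0.16, MSN2 at 0.072, SNF1 at 0.066 and RIM15 at 0.026. MSN4 ran from 0.19 without scrambled B to 0.27 without scrambled A, and MSN2 from 0.082 to 0.22 in the same fits. BCY1, for the regulatory subunit of protein kinase A, differed by 0.07 on the log2 scale (+116 minus scrambled) and did not pass the test (limma adjusted p = 0.417).

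The other trehalase genes, NTH2 and ATH1, had log2 folds of 0.19 and 0.19 (limma adjusted p = 0.111 and 0.167). Both were higher in the +116 libraries without overlap, against 27.3% of tested genes. Of the 6 genes for other trehalases and their regulators, 4 were higher and 1 was lower without overlap. NTH2 and ATH1 are long genes, of 2343 and 3636 bp, and the length correction brought them to 0.0996 and 0.084. ATH1 was at 0.11 without scrambled B. GLG1, which encodes a self-glucosylating primer of glycogen, had 0.15, and SGA1, a glucoamylase gene known for its use in sporulation, had 0.33 at 84.1 to 129.7 normalized reads (limma adjusted p = 0.240 and 0.280). GAC1 and GIP2, for subunits that direct protein phosphatase 1 to its substrates, had −0.36 and 0.13 (limma adjusted p = 0.449 and 0.483), GAC1 at only 27.0 to 46.0 normalized reads. Single libraries moved these values. Without +116 A, GLG1 was at 0.080 and SGA1 at 0.51, and without +116 B they were at 0.22 and 0.14. Leaving out scrambled A put GAC1 at −0.58 and GIP2 at 0.0076, and leaving out scrambled B put them at −0.13 and 0.26. PCL8 and PCL7, cyclin genes of the kinase Pho85, had log2 folds of 0.12 and −0.10 (limma adjusted p = 0.337 and 0.397), and PCL7 ran from −0.16 without +116 B to −0.038 without +116 A. Of the 5 genes of the Pho85 group, 1 was higher and 2 were lower in both +116 libraries without overlap, against 27.3% and 26.3% of tested genes, and the groups of all 6 phosphatase genes overlapped.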

How the data were processed

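Poly(A) RNA of 4 libraries, 2 per guide, was sequenced with a stranded kit, per the labels' protocols. The authors deposited a normalized read count per gene and library, a signal that is never negative. The submitters' processing notes list, with no roles, DESeq2, Picard 1.84, Bowtie2, TopHat, TopHat2 2.0.8, Trimmomatic 0.30 and bcl2fastq 1.8.4. The build, annotation and read counter behind these values were not given in the sources used here. Every column proved to hold whole multiples of its own step, in 100% of values within 1e-06 of a read, so whole reads were recovered for edgeR 4.0.16 and DESeq2 1.42.0 as alternatives. Genes with a mean of at least 5 entered limma 3.58.1 (R 4.3.3) on log2(value + 1), a scale that understates the change of low genes, with the prior variance trended on abundance. Tests were two-sided and adjusted by the Benjamini-Hochberg method. Lengths are coding lengths of RefSeq assembly R64, matched by locus tag, and its genome gave the upstream sequences. The length correction subtracted, per library, a natural spline with 4 degrees of freedom on log2 length. Named genes were all 10 members and, in each group of the other 34 genes, those past the threshold or else those with the lowest p-values, of which 1 is not reported here. The members and lists were chosen with earlier results of these data known. The fits were tested on simulated data. Other alternatives varied the pseudocount, filter, scaling, error model and libraries.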

Additional observations from a re-analysis of the deposited data

How the results depend on the processing

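All 10 members kept a log2 fold above 0 in all 17 alternatives, and their median stayed between 0.17 and 0.24 except after the length correction (0.10, with or without the replicate block). The counts of calls moved with the fit. Genes called higher and lower, 32 and 21 as reported, were 2 and 5 with no filter, 82 and 55 at a mean of at least 50, 73 and 76 with upper-quartile scaling, 51 and 37 with TMM, 0 and 1 in limma without a trend, 245 and 165 with robust empirical Bayes, 106 and 60 with edgeR, 100 and 80 with DESeq2, 170 and 88 with the replicate block, 0 and 3 after length correction, and 0 and 0 with both of these. Leaving out 1 library gave 0 to 207 higher and 0 to 104 lower. Without scrambled A and without scrambled B limma called 0 genes, where 1341 and 448 had an unadjusted p under 0.05. Upper-quartile scaling shifted the median of all genes to −0.016.

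Members called, 1 as reported, numbered 0 with no filter, 0 without a trend, 0 after length correction and 0 with that and the block. At a mean of at least 50, 137 of 5689 tested genes were called. Of 6277 tested genes, 149 were called with upper-quartile scaling, 166 with edgeR and 180 with DESeq2. The replicate block called 258 of the 6277, and robust empirical Bayes 410. Members called in these fits numbered 3 at a mean of at least 50, 3 with upper-quartile scaling and 3 with edgeR. They numbered 3 with DESeq2, 3 with the replicate block and 7 with robust empirical Bayes. Leaving out 1 library gave 0 to 4, namely 0 without scrambled A or B, 3 without +116 A and 4 without +116 B. TSL1 was called in 11 of the 17 alternatives, GSY2 in 7, GSY1 in 6 and TPS2 in 3. TPS1 and TPS3 were called in 2 each and NTH1 in 1, while GLC3, GPH1 and GDB1 were called in 0. HXK1, which is not a member, was called in 11 of the 17. It was not called with no filter (limma adjusted p = 0.0964) or in limma without a trend (0.353). DESeq2 gave no adjusted p for GSY1, GLC3, GPH1 and GDB1, so only 16 alternatives could call these. The cause of these changes was not tested. The letters A and B pair no samples by any label, and the A-minus-B differences of the groups correlated at −0.041 over tested genes. With the block, GSY1 and GSY2 joined TSL1 (limma adjusted p = 0.0113, 0.0213 and 6.6e-04). GLC3, GPH1, GDB1 and GSY1 had 756 to 1361 reads per library, the lowest depth among the members.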

Other observations

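Within the groups the members also differed between libraries. In scrambled B, 9 of the 10 members were lower than in scrambled A, with GLC3 the exception, and their median difference was −0.07 on the log2 scale, against 0.0024 over all tested genes. In +116 B, 5 members were lower than in +116 A, namely TPS1, GSY1, GSY2, GLC3 and GDB1, and the median difference was 0.015, against −0.00013. Length trends ran in opposite directions in the groups, with log2 changes per doubling of length of −0.027 for scrambled B against A, 0.031 for +116 B against A and 0.055 for +116 against scrambled.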
